A study of Mus musculus with 6 samples.

Results

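The genes described here build, coat and empty the lipid droplet: Tmem159, Bscl2, Fitm2, Dgat1, Dgat2, Plin2, Plin3, Plin4 and Pnpla2. They were read in whole cerebellum of 3 wild-type mice and 3 mice labelled Sp4neo-/-, a hypomorphic genotype of the zinc-finger transcription factor Sp4, on Illumina bead arrays. All 6 animals were males of the Black Swiss X CD1 strain at postnatal day 21. The design text gives them as 3 pairs of littermates. The allele was carried in the whole animal, and the sources used here do not state how much Sp4 it leaves. The list was chosen by the measured values of Tmem159, which were lower in the hypomorph, and the 8 other genes were added for their place in droplet biology. They are 9 of the 19057 genes that the platform annotation names. It assigned 12 of the 45281 probes to them, and all 12 were among the 19515 probes that were above background on at least 3 of the 6 arrays. Because Tmem159 was picked for its difference between the genotypes, its values are given as a description without a test.

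A lipid droplet is a core of triglyceride and sterol esters under a single layer of phospholipid and coat proteins. Triglyceride is made in the endoplasmic reticulum by the acyltransferases Dgat1 and Dgat2, and it collects into a lens within the membrane where seipin, the product of Bscl2, forms a ring with its partner Tmem159 (also called promethin or LDAF1). Fitm2 helps the lens to bud toward the cytosol, perilipins such as Plin2, Plin3 and Plin4 coat the surface, and the lipase Pnpla2 starts the breakdown of the stored fat. In brain, droplets are known mainly from glia and ependymal cells, and mutations of human BSCL2 cause either lipodystrophy or motor neuron disease.

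Sp4 binds GC boxes in promoters, so the promoters of the perilipin genes are shown first, with every GC box (GGGCGG on either strand) in capitals. RefSeq promoter windows of assembly GRCm38.p6, from 250 bases before to 50 bases after the start site, were matched for 6 of the 9 genes, giving 8 windows, since Bscl2 has 3 start sites. Tmem159, Dgat1 and Dgat2 were not matched. The Plin3 window lies at chr17:56290462-56290761, the Plin2 window at chr4:86670010-86670309 and the Plin4 window at chr17:56109733-56110032, all on the minus strand and written 5′ to 3′ along the gene.
Plin3: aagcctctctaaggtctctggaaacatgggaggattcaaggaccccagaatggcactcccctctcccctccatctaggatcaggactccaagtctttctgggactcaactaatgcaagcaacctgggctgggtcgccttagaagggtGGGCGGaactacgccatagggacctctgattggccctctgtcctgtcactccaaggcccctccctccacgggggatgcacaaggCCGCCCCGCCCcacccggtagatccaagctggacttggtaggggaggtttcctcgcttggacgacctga
Plin2: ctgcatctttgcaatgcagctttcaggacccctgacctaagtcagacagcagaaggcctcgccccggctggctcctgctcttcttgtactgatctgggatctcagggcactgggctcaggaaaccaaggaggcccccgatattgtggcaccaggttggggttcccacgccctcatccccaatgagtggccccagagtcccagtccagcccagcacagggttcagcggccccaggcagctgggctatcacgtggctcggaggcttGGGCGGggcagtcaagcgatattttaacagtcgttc
Plin4: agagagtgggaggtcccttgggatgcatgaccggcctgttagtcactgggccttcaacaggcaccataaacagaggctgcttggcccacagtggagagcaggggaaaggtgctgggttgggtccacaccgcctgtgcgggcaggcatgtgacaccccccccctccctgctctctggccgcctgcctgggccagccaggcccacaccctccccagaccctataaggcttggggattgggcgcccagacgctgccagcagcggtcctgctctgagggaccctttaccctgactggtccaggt

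Plin3 held 3 GC boxes, of which the pair nearest the start site overlap by 1 base and together occupy bases 19 to 9 before it. Plin2 held 1 GC box, which begins 14 bases after the start site, and Plin4 held 0. Pnpla2 held 2 GC boxes and Fitm2 held 1. Of the 3 Bscl2 windows, only the third held a GC box, and the first held 3 CCAAT boxes (CCAAT on either strand) instead. A GC box was thus found in 5 of the 8 windows, while 35.7% of all 32851 windows of the same length held one. No GC box shared bases with a CCAAT box in the 8 windows. A match of letters describes the window only and says nothing of binding.

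The targeted gene and the tissue were checked first. On probe ILMN_1259753 Sp4 read 7.82, 6.86 and 7.35 in wild type 1, 2 and 3 and 5.99, 5.80 and 6.32 in hypomorph 1, 2 and 3, as normalized log2 intensity. The groups did not overlap, and the log2 difference was -1.30 (limma, adjusted p = 0.355 over all tested probes). On its other tested probe, ILMN_1253376, the wild-type values were 6.36, 5.77 and 6.64, and all 3 hypomorphs fell short of background detection. Between 18656 and 20135 probes were above background on an array, and array profiles correlated at 0.968 to 0.986. Of the granule cell markers 7 of 8 were measured. The Purkinje cell markers Pcp2, Pvalb and Slc1a6 were measured, but Calb1, Car8 and Pcp4, like the granule cell marker Cbln3, were not above background on any array. With 3 arrays per genotype the precision is limited, and the labels do not say whether the animals' samples were processed together.

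Tmem159 was lower in every hypomorph than in every wild-type animal on both of its probes. On probe ILMN_1256463 the background-subtracted intensity before normalization was 398, 442 and 429 in wild type 1, 2 and 3 and 142, 146 and 166 in hypomorph 1, 2 and 3. On the normalized log2 scale, used for all values that follow, this probe read 8.73, 8.66 and 8.80 in wild type and 7.37, 7.36 and 7.52 in the hypomorph. The lowest wild-type array thus stood more than 1 log2 unit above the highest hypomorph array. The group means were 8.73 ± 0.07 (SD, n = 3) and 7.42 ± 0.09, a log2 difference of -1.31, or 2.48-fold lower.

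The second Tmem159 probe, ILMN_2686407, read 7.81, 8.13 and 8.19 in wild type and 7.09, 7.04 and 7.35 in the hypomorph. Its groups did not overlap either, and its log2 difference was smaller, -0.88, or 1.84-fold lower. Hypomorph 3 was the highest hypomorph array on both probes and wild type 3 the highest wild-type array on both. Both probes were above background on all 6 arrays and are annotated to the same RefSeq transcript. Where they lie in it, and whether a sequence variant of this mixed strain background lies under either, was not tested. The size of the difference depends on the scale, and in the authors' processed values it was -0.89 and -0.53 on the log2 scale.

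Bscl2, which encodes the seipin ring that Tmem159 joins, had a higher mean in the hypomorph. The Bscl2 probe read 12.80, 13.08 and 13.05 in wild type and 12.98, 13.30 and 13.19 in the hypomorph. The groups overlapped, and the log2 difference was 0.18, an SE of 0.15 and a 95% interval from -0.18 to 0.54 (limma, adjusted p = 0.999 over all tested probes).

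Fitm2, an endoplasmic reticulum enzyme needed for droplet budding, had 3 probes. The probe ILMN_2858399 read 10.70, 10.43 and 10.57 in wild type and 10.83, 10.74 and 10.69 in the hypomorph, so that the lowest hypomorph array lay just below the highest wild-type array. Its log2 difference was 0.19 (SE 0.14, 95% interval from -0.13 to 0.50, adjusted p = 0.999 in limma). The probe ILMN_2470039 differed by 0.12 (SE 0.17) and read 10.29 in hypomorph 2, beside 10.75 and 10.57 in hypomorph 1 and 3. The dim probe ILMN_2715170 was above background on 4 of 6 arrays and differed by -0.01 (SE 0.22).

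**Figure D1:**
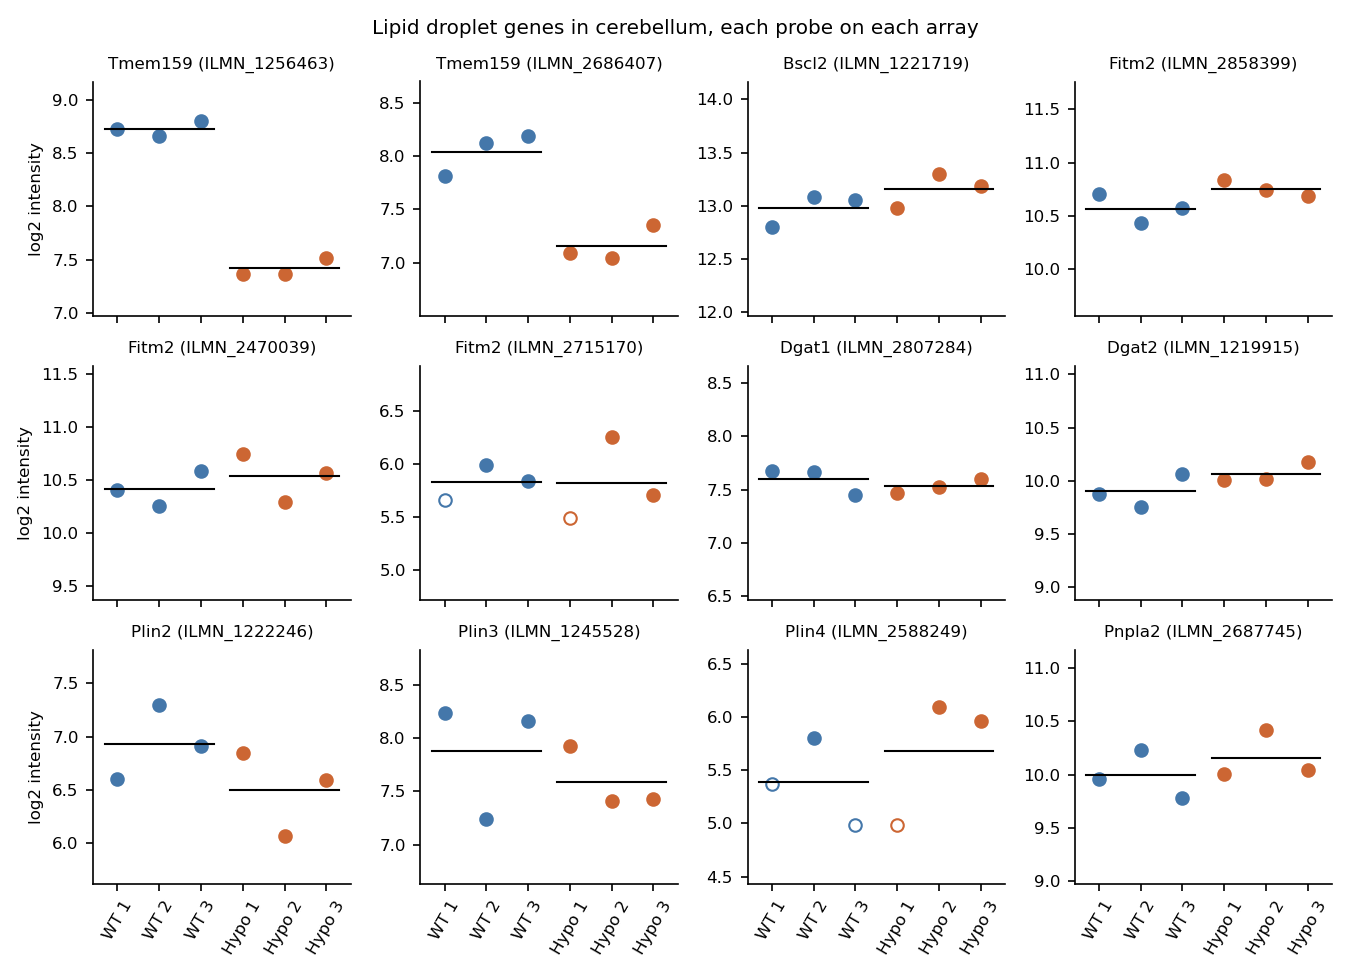
Normalized log2 intensity of each of the 12 probes on each array, with wild type in blue and hypomorph in orange. Black bars are group means, open circles are arrays on which the probe was not above background, and every panel spans the same 2.2 log2 units around its own centre; of the 9 genes, Tmem159 has groups that do not overlap.

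The acyltransferases that complete triglyceride synthesis showed small differences. Dgat1 read 7.68, 7.67 and 7.45 in wild type and 7.47, 7.53 and 7.60 in the hypomorph, and it differed by -0.06 on the log2 scale (SE 0.13, 95% interval from -0.38 to 0.25). Dgat2, the enzyme linked to droplet growth, read 9.88, 9.76 and 10.07 in wild type and 10.01, 10.02 and 10.18 in the hypomorph, and it differed by 0.17 (SE 0.14, 95% interval from -0.17 to 0.50). The groups overlapped for both genes, and the limma adjusted p was 0.999 for each. Dgat2 lies on chromosome 7, as do Tmem159 and Pnpla2.

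Among the perilipins, the SD within a genotype lay between 0.29 for Plin3 in the hypomorph and 0.61 for Plin4 in the hypomorph. Plin2, the coat protein whose level tends to follow stored fat, read 6.60, 7.30 and 6.91 in wild type and 6.84, 6.07 and 6.59 in the hypomorph. Wild type 2 was the highest array and hypomorph 2 the lowest, and the log2 difference of -0.43 had an SE of 0.25 and a 95% interval from -1.03 to 0.16 (limma, adjusted p = 0.995). This was the difference farthest from 0 among the 8 other genes, and 7.27% of all tested probes had one at least as far from 0. Leaving out 1 array gave -0.61 without hypomorph 1, -0.60 without wild type 1, -0.48 without hypomorph 3 and -0.45 without wild type 3. The Plin2 difference was -0.25 without wild type 2, -0.22 without hypomorph 2 and, a choice made after the values were seen, -0.04 without both.

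Plin3, a perilipin that moves between cytosol and nascent droplets, read 8.24, 7.24 and 8.16 in wild type and 7.92, 7.41 and 7.43 in the hypomorph. Wild type 2 was the lowest of all 6 arrays here, opposite to its place for Plin2. The log2 difference was -0.29 (SE 0.29, 95% interval from -0.98 to 0.40, adjusted p = 0.999 in limma), and leaving out 1 array moved it from -0.61 without wild type 2 to -0.15 without wild type 3 and -0.11 without wild type 1. Plin4, a perilipin best known from fat and muscle, read 5.37, 5.80 and 4.98 in wild type and 4.98, 6.10 and 5.96 in the hypomorph and was above background only on wild type 2, hypomorph 2 and hypomorph 3. Its log2 difference of 0.29 had an SE of 0.33 and a 95% interval from -0.49 to 1.08, and leaving out 1 array gave 0.08 without hypomorph 2 to 0.64 without hypomorph 1 (limma, adjusted p = 0.999).

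Pnpla2, also called adipose triglyceride lipase, read 9.96, 10.23 and 9.78 in wild type and 10.00, 10.42 and 10.05 in the hypomorph. The groups overlapped, with the arrays numbered 2 the highest of each genotype, and the log2 difference was 0.16 (SE 0.18, 95% interval from -0.26 to 0.59, adjusted p = 0.999 in limma).

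Of the 10 probes of the 8 other genes, 6 had higher and 4 lower values in the hypomorph, with a median log2 difference of 0.14 beside 0.00 for all tested probes. In limma 0 of the 10 passed an adjusted p of 0.05, 0 had an unadjusted p under 0.05, and 0 had groups that did not overlap. The background shares were 0% of all tested probes for the adjusted p, 5.31% for the unadjusted p and 10.5% for groups that did not overlap, so counts of 0 among 10 are near the background. The intervals of these probes reached from -1.03, for Plin2, to 1.08, for Plin4, and others were narrower, such as -0.38 to 0.25 for Dgat1. With 3 arrays per genotype, the values do not exclude true differences within each probe's own interval.

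**Figure D2:**
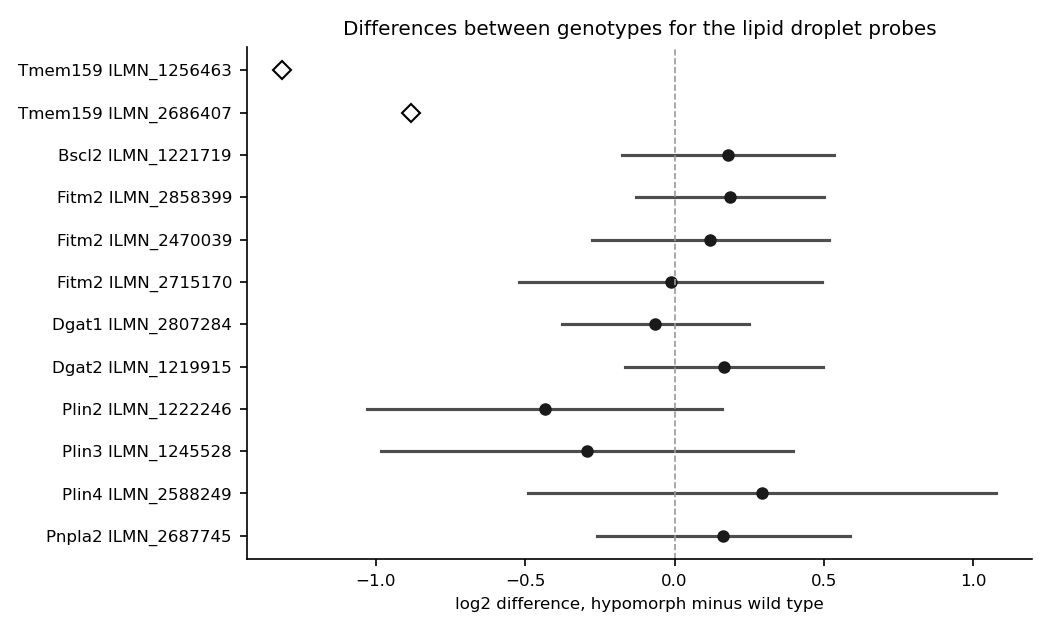
Log2 difference, hypomorph minus wild type, of the 12 probes. Circles with lines are limma estimates with 95% intervals for the 8 other genes, all of which include 0, and open diamonds are the Tmem159 values of -1.31 and -0.88, drawn without an interval because they chose the list.

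Markers of cell types that could carry droplets were read beside Tmem159. Oligodendrocyte markers had lower values in the hypomorph for 9 of 9 measured genes, with a median log2 difference of -0.20 and a summed linear level of 123975 to 146401 in wild type and 111470 to 133883 in the hypomorph. Astrocyte and Bergmann glia markers were lower for 8 of 9, with a median of -0.14 and summed levels of 113304 to 131741 and 103636 to 124855. Both sums overlapped between the genotypes, and the brightest genes weigh most in them. The oligodendrocyte differences ran from -0.48 for Ugt8a to -0.02 for Mbp, the brightest of the 9. The groups did not overlap for 1 of 9 oligodendrocyte markers, Cnp, and for 0 of 9 astrocyte markers, beside 10.5% of all tested probes. Microglia markers had lower values for 2 of 7 and endothelial and mural markers for 4 of 7. Their summed levels were 1696 to 2411 in wild type and 2032 to 2592 in the hypomorph for microglia, and 4928 to 5242 and 3607 to 5370 for endothelial and mural cells. The last list held large differences of opposite sign, named here after their values were seen. Slco1a4, an organic anion transporter of brain endothelium, differed by 1.26 (SE 0.26, adjusted p = 0.355 in limma) with groups that did not overlap. It was dim in wild type and not above background on wild type 2, and in the authors' processed values it differed by 0.57. Rgs5, a pericyte marker, differed by -1.19 (SE 0.56) with overlapping groups and its lowest value, 7.50, in hypomorph 1. Choroid plexus and ependymal markers had lower values for 2 of 3, with a median of -0.0037 and summed levels of 766 to 2550 in wild type and 1161 to 1961 in the hypomorph. Meningeal and fibroblast markers were lower for 4 of 5, with a median of -0.15 and summed levels of 12611 to 18919 and 12104 to 16857. The part of any of these cell types in the Tmem159 values was not tested. Of the fat cell markers, Adipoq, Fabp4, Plin1, Cidec, Lep and Retn were not above background on any array. In whole tissue, fewer cells of a type and less RNA per cell cannot be told apart.

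Beyond these genes, 7 lists of lipid storage and fatty acid metabolism held 88 measured genes, each represented by its brightest probe. In limma 0 of the 88 passed an adjusted p of 0.05, the lowest being 0.363, and 8 had an unadjusted p under 0.05, or 9.09% beside 5.31% of all tested probes. The groups did not overlap for 9 genes, or 10.2% beside 10.5%. Values were lower in the hypomorph for 52 genes, or 59.1% beside 49.8% of all tested probes, and higher for 36, with a median log2 difference of -0.06. The number with an unadjusted p under 0.05 was unsteady. It was 2 without hypomorph 2, 3 without wild type 3, 4 without wild type 1 and 4 without both arrays numbered 2. With the mean over the probes of each gene it was 5, without hypomorph 1 it was 9, and with the replicate block it was 11.

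Among 19 other genes of droplet assembly and surface, 10 had higher and 9 lower values, with a median of 0.01. Vps13a, a lipid transfer protein found at droplets, had the smallest p and read 7.18, 7.75 and 7.50 in wild type and 6.95, 6.93 and 7.09 in the hypomorph, and it differed by -0.49 (SE 0.17, adjusted p = 0.845 in limma). Its other measured probe differed by -0.10 (SE 0.35). Cidea, a droplet fusion protein, differed by -0.58 (SE 0.23) with overlapping groups.

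Of 9 lipolysis genes, 7 had lower and 2 higher values, with a median of -0.13. Abhd5, the co-activator that switches on the Pnpla2 lipase, read 9.88, 9.87 and 9.79 in wild type and 9.60, 9.24 and 9.50 in the hypomorph. Its groups did not overlap, and its log2 difference of -0.40 (SE 0.14) did not pass (adjusted p = 0.879 in limma), while Pnpla2 itself stood at 0.16. Lipa, the lysosomal acid lipase, differed by 0.55 (SE 0.29) on its brightest probe and by 0.14 (SE 0.27) on its other.

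Of 9 genes of triglyceride and sterol ester synthesis, 7 had higher and 2 lower values, with a median of 0.09. Lpin2, a phosphatidate phosphatase, reached at most 8.12 in wild type and read 8.46, 8.60 and 8.26 in the hypomorph, so that the groups did not overlap. It differed by 0.41 (SE 0.14, adjusted p = 0.834 in limma). Its dim probe differed by 0.13 (SE 0.29). Gpam, the mitochondrial enzyme that starts glycerolipid synthesis, differed by 0.22 (SE 0.17).

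Fatty acid synthesis held the smallest p of the 88 genes. Acacb, the mitochondrial acetyl-CoA carboxylase whose product restrains fatty acid oxidation, read 6.08, 6.24 and 5.94 in wild type and 6.66, 6.84 and 6.74 in the hypomorph, and it differed by 0.66 (SE 0.14, adjusted p = 0.363 in limma). Fasn, the fatty acid synthase, went the other way, at -0.60 (SE 0.20, adjusted p = 0.793), and was not above background on 1 hypomorph array. Both are dim, and in the authors' processed values they differed by 0.27 and -0.22. In all, 12 of the 19 measured genes had lower values, with a median of -0.10.

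Genes of fatty acid oxidation and PPAR response, a list that also holds regulators such as Pparg and Ppargc1a, had lower values for 8 of 14. Their median was -0.10. Cpt2, the inner carnitine palmitoyltransferase, differed by -0.54 (SE 0.22), -0.60 (SE 0.24) and -0.54 (SE 0.19) on its 3 measured probes, and the lowest adjusted p of these was 0.837 in limma. Slc25a20, the carnitine carrier, differed by -0.35 (SE 0.13) on its brightest probe and by 0.06 (SE 0.15) on its other. Genes of fatty acid uptake, activation and binding were lower for 8 of 12, with a median of -0.07, among them the acyl-CoA synthetase Slc27a3 at -0.28 (SE 0.17), while Acsbg1 stood at 0.17 (SE 0.14). The 6 spastic paraplegia and membrane-shaping genes all had lower values, with a median of -0.07, led by Spg20, which encodes the droplet-turnover protein spartin, at -0.31 (SE 0.21), and by Erlin2 at -0.13 (SE 0.17). Other probes of Erlin2 differed by 0.33 (SE 0.27) and -0.41 (SE 0.23).

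**Figure D3:**
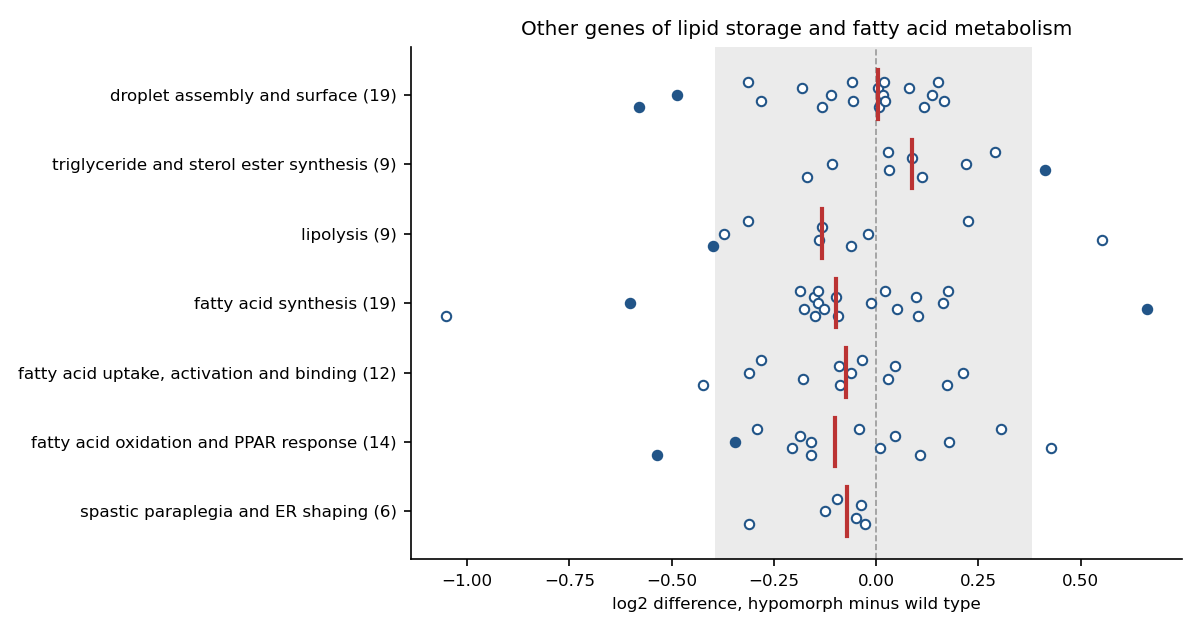
Log2 difference, hypomorph minus wild type, of 88 other genes of lipid storage and fatty acid metabolism, with the number measured in brackets. Filled circles have an unadjusted p under 0.05, red bars are list medians between -0.13 and 0.09, and the grey band from -0.39 to 0.38 holds the middle 90% of all tested probes.

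Neighbours of Tmem159 on chromosome 7 were read in the same fit. Of the 5 protein-coding genes on each side of it in RefSeq of GRCm38.p6, 3 had a tested probe, all on the same side. In limma 0 of the 3 passed an adjusted p of 0.05. The share of all tested probes was 0% too, so this count says nothing particular to the neighbours. Eri2, an exoribonuclease, differed by -0.12 (SE 0.14), Dcun1d3, a factor of protein neddylation, by -0.06 (SE 0.16), and Lyrm1, a small LYR-motif protein, by 0.12 (SE 0.22). The dimmer probe of Dcun1d3 differed by 0.35 (SE 0.15) with groups that did not overlap (adjusted p = 0.934). On the other side, Zp2, Crym, Abca14 and Abca15 were not above background on enough arrays to be tested, and no probe was annotated to Anks4b alone. On the side of the tested genes, Rexo5 was likewise not tested and no probe was annotated to Dnah3 alone. Dnah3 and Zp2 are the genes next to Tmem159, so neither adjacent gene was tested.

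The genes whose profile over the 6 arrays was closest to Tmem159 were Tspan17, a tetraspanin, Rbfa, a mitochondrial ribosome-binding factor, Gng7, a G protein gamma subunit, Hpca, a neuronal calcium sensor, and Cited4, a transcriptional co-activator. Likeness was the root mean square difference of mean-centred log2 values from probe ILMN_1256463, and it was 0.12 for Tspan17, 0.17 for Rbfa, 0.18 for Gng7, 0.20 for Hpca and 0.21 for Cited4. Their log2 differences between the genotypes were -1.30, -1.08, -1.02, -0.97 and -1.26, which is what a profile like that of Tmem159 requires and is no separate finding. The second Tmem159 probe stood at 0.25. Among 16397 ranked probes the nearest of the other droplet genes was Plin2, at 0.54 and place 1097, and Bscl2 stood at 0.76 and place 12178.

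**Figure D4:**
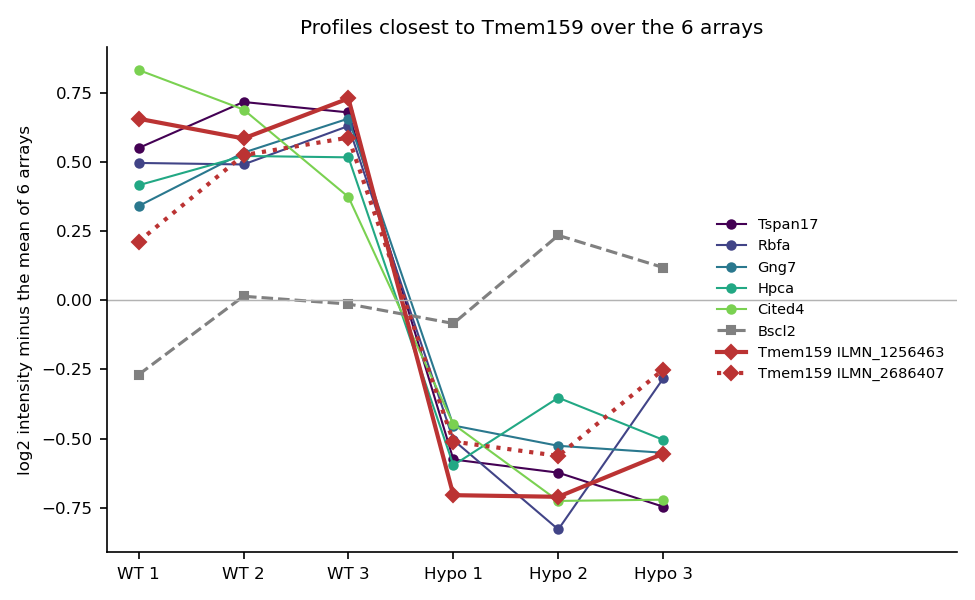
Log2 intensity minus the mean of the 6 arrays for both Tmem159 probes, the 5 genes closest to the brighter of them, and Bscl2. Lines join arrays only to guide the eye; the 5 genes and both Tmem159 probes are above their mean on every wild-type array and below it on every hypomorph array, while Bscl2 stays within 0.3 of its mean.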

How the data were processed

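Per the labels' protocols, total RNA was extracted with Trizol, cleaned and treated with DNase, and biotin-labelled complementary RNA was hybridised to Illumina arrays. The submitters' processing notes name BeadStudio without a version. For each probe and array the authors deposited a background-subtracted intensity, not normalized, and its detection p-value. Their processed table, also deposited, holds intensity on a linear scale with the same ranks within each array (rank correlation 1) and medians of 161.3 to 161.5; how it was made is not stated.

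Intensity values were background-corrected from the detection p-values, quantile-normalized and put on a log2 scale with an offset of 16 (neqc, limma 3.58.1, R 4.3.3). Tested were probes whose detection p was under 0.05 on 3 or more arrays, with lmFit and eBayes and no block. Differences are hypomorph minus wild type, and p was adjusted by Benjamini-Hochberg over 19515 probes at a threshold of 0.05. The test was checked on simulated data, drawn with independent noise for each probe and array. Those data did not carry the correlation of same-numbered arrays given below. P-values measure the spread between these animals only. Genes were named by the platform annotation, where 34885 probes had 1 symbol, 18 several and 10378 none, and the gene table of GRCm38.p6 altered 0.

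The members and lists were chosen with earlier results of these data known. Named are all members, Sp4, the 2 smallest p in each list, the 5 genes on each side of Tmem159 where tested, and the 5 closest profiles (no Riken or predicted genes). Other markers and other probes are named as examples. Promoters and neighbours are from RefSeq.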

Additional observations from a re-analysis of the deposited data

How the results depend on the processing

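Over all tested probes, the count passing the adjusted threshold was 0, and it rose to 2 with the replicate block, 5 without background correction, 5 with an offset of 50, 8 with the authors' processed values, 2 with the stricter filter (detection p under 0.01 on all 6 arrays), 8 with a variance trend and robust moderation and 13 with array weights; leaving out 1 array gave 0 to 2. Probes with an unadjusted p under 0.05 numbered 1036 of 19515, but 1817 with the replicate block, 2299 of 45281 without a filter and 2321 with array weights. The same-numbered arrays' deviations correlated at 0.44, 0.40 and 0.06; each array correlated best with its own number, which is a hint from the data and not from the design, and with the block 0 lipid droplet genes other than Tmem159, 0 pathway genes and 0 neighbours passed. Both Tmem159 probes were part of every fit and of the counts over all tested probes, but no p-value is given for them under any alternative. The leading Tmem159 probe was lower under all 16 alternatives, at -1.13 without background correction, -1.40 with median scaling, -1.16 with an offset of 50 and -0.89 with the authors' values. As Tmem159 was picked for lower values on these arrays, the steady sign describes the chosen difference and does not test it. The count of other lipid droplet probes that passed stayed at 0 under all 16 alternatives, as did that of neighbours, and that of the 7 wider lists under 17. At an unadjusted p under 0.05, 1 other droplet probe was found with array weights, without wild type 2 and without hypomorph 1, and 5 wider genes with the mean over probes. Median scaling moved the median of all probes to -0.07 and the wider genes with lower values from 52 to 64 of 88 (72.7%, beside 64.2% of all tested probes). Signs turned for Dgat1 (0.042) and Dcun1d3 (0.092) with array weights. Leaving out 1 array, the dim Fitm2 probe ran from -0.23 to 0.15, Dcun1d3 from -0.19 to 0.018, Lyrm1 from -0.029 to 0.30 and Erlin2 from -0.20 to 0.0068. The cause was not tested for any of these. Leaving out both arrays numbered 2 was chosen after seeing the data. Plin2, Plin4, the dim Fitm2 probe, Acacb, Fasn, Slc27a3 and both Sp4 probes were removed by the stricter filter and have no value there.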
